A study of Mus musculus with 4 samples.

Results

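The genes for the proteins of the mitochondrial ribosome were taken from the deposited table as those whose symbol starts with Mrpl or Mrps followed by a digit, without pseudogenes. This gave 78 of 19088 genes, 49 named Mrpl for the large subunit and 29 named Mrps for the small subunit. The cells were group 2 innate lymphoid cells (ILC2s), lymphocytes of tissues that secrete type 2 cytokines, sorted from the epididymal fat of C57BL/6 males aged 8 weeks. WT mice had the genotype R5/+ and KO mice R5/+Stk11f/f, with 2 libraries each, so that R5 is shared by both groups and the floxed Stk11 allele belongs to KO. The labels do not spell out R5; in mouse ILC2 work the name is used for an Il5 allele with a fluorescent reporter and Cre recombinase, which acts in cells that express Il5. Each library was made from 2000 to 4000 sorted cells, and the labels do not say whether it came from a single animal. By its title the study asks how LKB1, the kinase encoded by Stk11, bears on adipose ILC2 function through mitochondria.

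Mitochondria have a ribosome of their own, which translates the few messages of mitochondrial DNA into core subunits of the respiratory chain and of ATP synthase. Its ribosomal RNAs are made inside the organelle, while its proteins are encoded in the nucleus, made in the cytosol and imported. Many of them descend from bacterial ribosomal proteins, and others are found in mitochondria only. The large subunit forms the peptide bond and passes the new chain to the inner membrane, and the small subunit binds the message and reads its codons. RNA encoded in mitochondrial DNA was not analysed here.

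Levels are in FPKM (fragments mapped to a transcript, scaled by its length and by the size of the library), which allows genes to be compared per length. Pairs of values are for replicates 1 and 2 of a group, in that order. The libraries had 9044 to 9666 genes at 1 FPKM or more. Stk11 itself read 43.1 and 39.1 FPKM in WT against 31.9 and 16.6 in KO, which did not pass the test used here (log2 fold change -0.81, SE 0.37; limma on log2(FPKM + 1), adjusted p = 0.548); a value per gene does not separate the floxed exons. Its log2 fold change was -0.35 without KO replicate 2 and -1.26 without KO replicate 1. All 12 ILC2 markers were found in every library, with Gata3 from 417 to 530.1 FPKM, whereas the 6 macrophage genes summed to 0.64 and 4.21 FPKM in WT against 0.67 and 11.1 in KO, with C1qa, Csf1r and Itgam under 1 FPKM in all and Cd68 at 8.66 FPKM in KO replicate 2. The 12 ILC2 genes summed to 0.92% and 0.86% of all FPKM in WT against 0.97% and 0.95% in KO. The summed share of 7 mast cell genes was higher in every library, with 1.59% and 1.23% in WT against 2.60% and 4.09% in KO. That of 4 haemoglobin genes was 5.40% and 7.86% in WT against 7.18% and 2.83% in KO. The part of mast cell and haemoglobin genes in the results below was not tested.

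All 78 genes reached a mean of 1 FPKM, the condition for being tested, and none was listed at 0 in any library. Their means ran from 2.09 to 1313 FPKM. The 20 genes of highest mean held 76.3% and 75.1% of the summed level in WT and 69.5% and 73.7% in KO. The median over Mrpl genes was 27.6 and 36.4 FPKM in WT against 37.5 and 32.3 FPKM in KO, and over Mrps genes 38.5 and 33.8 against 55.4 and 44.1. Both subunits thus had members at high and at low levels.

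Mrpl33, the homologue of a small protein of the bacterial large subunit, was the most abundant, with 1402 and 1605 FPKM in WT against 1005 and 1240.2 in KO. Alone it made up 20.7% and 20.4% of the summed level in WT and 16.3% and 18.8% in KO. Mrpl23, a protein at the exit of the tunnel through which the new chain leaves, read 454 and 475 FPKM in WT against 318 and 437 in KO, and Mrpl42 read 319 and 414 FPKM in WT against 307 and 288 in KO. In these 3 large-subunit genes both KO libraries lay below both WT libraries. The highest genes of the small subunit were Mrps18c with 305 and 408 FPKM in WT against 282 and 311 in KO, Mrps21 with 293 and 325 FPKM in WT against 289 and 274 in KO and Mrps33 with 235 and 325 FPKM in WT against 195 and 205 in KO. In Mrps18c the groups overlapped, and in the other two the KO libraries were the lower ones. Mrpl54 (271 and 279 FPKM in WT against 269.8 and 311 in KO) and Mrpl32 (208 and 228 FPKM in WT against 179 and 250.5 in KO) completed the 8 highest, both with overlapping groups.

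**Figure D1:**
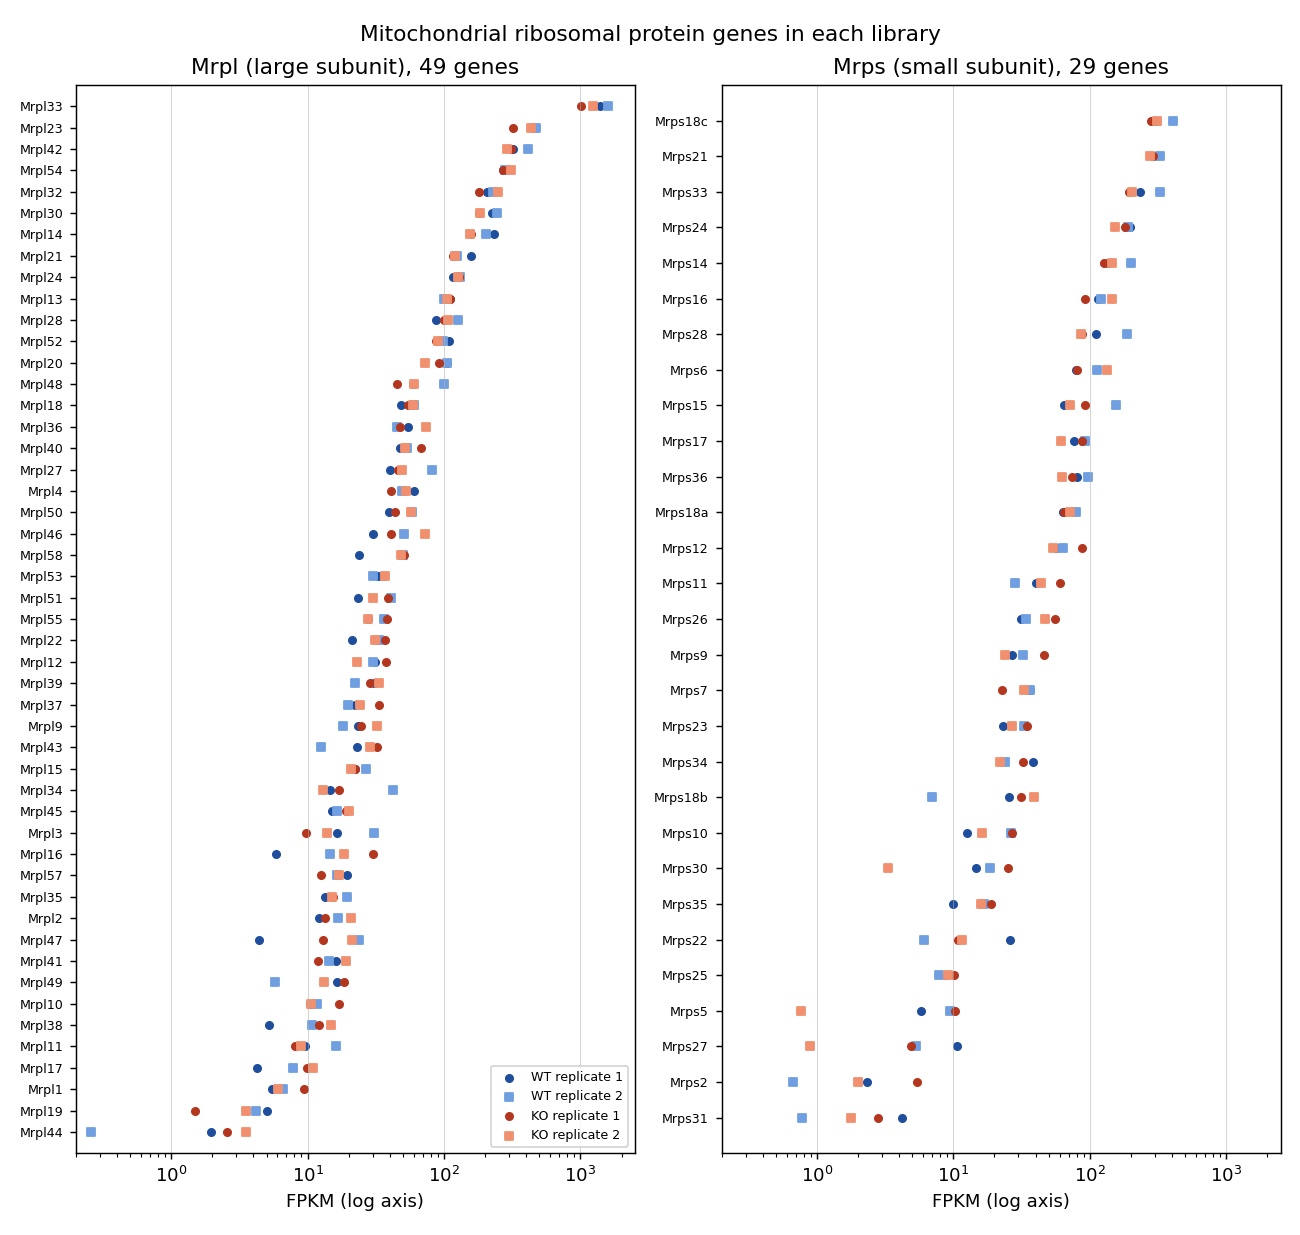
FPKM of each gene (log axis) in each of the 4 libraries, with the 49 Mrpl genes on the left and the 29 Mrps genes on the right, ordered by mean level; 1 point is 1 library. Mrpl33 lies above all others at 1005 to 1605 FPKM, and the points of a gene spread more at low levels than at high ones.

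At the low end the libraries of a group often lay far apart relative to their level. Mrpl44, related to bacterial ribonuclease III, had the lowest mean, with 1.97 and 0.26 FPKM in WT against 2.58 and 3.54 in KO. Mrps31 read 4.19 and 0.78 FPKM in WT against 2.82 and 1.78 in KO, Mrps2 read 2.33 and 0.67 FPKM in WT against 5.41 and 2.00 in KO and Mrpl19 read 5.02 and 4.18 FPKM in WT against 1.50 and 3.52 in KO. The groups overlapped in Mrps31 and Mrps2, while both KO libraries were higher in Mrpl44 and lower in Mrpl19. For the 24 genes under 20 FPKM, the median distance between the WT libraries was 0.69 on the log2(FPKM + 1) scale and that between the KO libraries 0.46. For the 19 genes of 100 FPKM or more these distances were 0.19 and 0.12, so that levels of abundant genes were the better determined ones.

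Between KO and WT, 0 of the 78 genes passed the test (limma, smallest adjusted p = 0.475, for Mrpl16), where 0.214% of the 9818 genes tested did (0.163% higher and 0.0509% lower in KO). At an unadjusted p under 0.05 there were 4 (Mrpl16, Mrps18b, Mrpl33 and Mrps28), beside 9.18% of all genes. Log2 fold changes were above 0 in 39 genes and below 0 in 39, and 50.9% of all genes were below 0. Their median was 0.02, and that of all genes tested -0.01. The median size of a log2 fold change was 0.27 and the median standard error (SE) 0.34, so that a typical difference was no larger than a typical error. In bulk samples, fewer cells of a type and less RNA per cell cannot be told apart.

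The libraries of the groups did not overlap in 31 of the 78 genes, beside 39.1% of all genes tested. KO was higher in 13 of these and lower in 18, beside 18.5% and 20.6% of all genes. With every library set to the same total (TPM scaling), which moved the median of all genes by 0.11 on the log2 scale, KO was higher in 22 and lower in 10, beside 23.5% and 16% of all genes. The direction in which most separated genes lay therefore changed with the scaling.

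**Figure D2:**
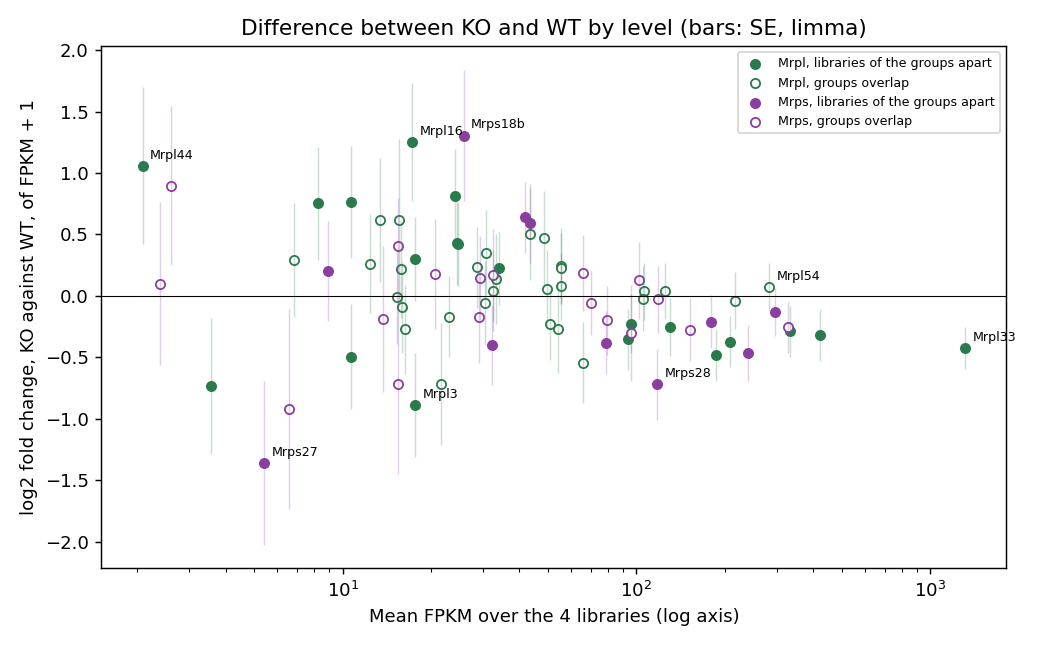
Log2 fold change between KO and WT (of FPKM + 1) against mean FPKM over the 4 libraries (log axis), with bars for the SE from limma; filled points are genes whose groups do not overlap. Genes lie on both sides of 0 below about 100 FPKM, and 15 of the 19 genes at or above that level lie below 0.

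Among genes with separated groups and a mean of 5 FPKM or more, the 6 with the most negative log2 fold changes held abundant and scarce members. Mrps28 of the small subunit read 110.1 and 187 FPKM in WT against 87.4 and 86.3 in KO (log2 fold change -0.72, SE 0.29; limma, adjusted p = 0.515). Its KO libraries were nearly equal, and WT replicate 2 stood well above WT replicate 1. Mrpl14, a homologue of bacterial L14 on the face that meets the small subunit, read 233 and 203 FPKM in WT against 157 and 154 in KO (log2 fold change -0.48, SE 0.21). Mrps33, with levels given above, came next (log2 fold change -0.46, SE 0.23). Mrpl33, just outside these 6, followed (log2 fold change -0.43, SE 0.17; limma, adjusted p = 0.506).

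The scarce ones were less well determined. Mrps27, of the pentatricopeptide repeat family of RNA-binding proteins, read 10.6 and 5.28 FPKM in WT against 4.87 and 0.89 in KO (log2 fold change -1.36, SE 0.67). WT replicate 2 and KO replicate 1 were almost level in this gene. Mrpl3, which reaches towards the site of peptide bond formation, read 16.4 and 30.7 FPKM in WT against 9.77 and 13.9 in KO (log2 fold change -0.89, SE 0.42), and Mrpl11, at the base of the stalk where translation factors bind, read 9.53 and 16.03 FPKM in WT against 8.03 and 9.01 in KO (log2 fold change -0.49, SE 0.43). In both, WT replicate 1 was nearer to the KO libraries and WT replicate 2 was the highest.

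On the positive side Mrps18b of the small subunit came first, with 25.7 and 6.99 FPKM in WT against 31.4 and 39.3 in KO (log2 fold change 1.30, SE 0.54; limma, adjusted p = 0.523). WT replicate 2 was far below the other 3 libraries. Mrpl16, a homologue of bacterial L16, read 5.88 and 14.6 FPKM in WT against 30.2 and 18.5 in KO (log2 fold change 1.25, SE 0.48), and Mrpl43 read 22.9 and 12.5 FPKM in WT against 32.3 and 28.9 in KO (log2 fold change 0.81, SE 0.38). Mrps26 of the small subunit read 31.3 and 33.8 FPKM in WT against 55.4 and 47.3 in KO (log2 fold change 0.64, SE 0.29). Of the 6 genes, Mrps26 was the one in which the gap between the nearest libraries of the groups exceeded the gap within each group. Mrpl38 (5.17 and 10.7 FPKM in WT against 12.2 and 14.8 in KO; log2 fold change 0.77, SE 0.46) and Mrpl17 (4.25 and 7.77 FPKM in WT against 9.97 and 10.9 in KO; log2 fold change 0.75, SE 0.46) were lower in level and had WT replicate 1 as their lowest library.

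In both subunits most genes of 100 FPKM or more had a log2 fold change below 0, while genes at lower levels went both ways. Of the 19 genes of 100 FPKM or more, 15 had a log2 fold change below 0, their median was -0.25, and in 10 both KO libraries lay below both WT libraries. Of 973 other genes at that level 59.4% were below 0, with a median of -0.10, and KO lay below WT in 348. Cytosolic ribosomal protein genes count among these other genes. Across all levels, all 78 of them were below 0, and 76 were separated with KO lower. Values without them were not computed. Separated either way were 52.6% of the members and 55.3% of the other genes at that level. The 35 genes of 20 to 100 FPKM had a median of 0.14 with 14 below 0, and the 24 genes under 20 FPKM a median of 0.21 with 10 below 0, while other genes at those levels had medians of -0.01 and 0.00. The classes were drawn after the values had been seen, and the difference from other genes was not tested. Members of higher level were also shorter, with median transcript lengths of 783, 937 and 1488.5 nt from the highest class to the lowest. With the trend over length removed from each library, the 19 genes had a median of -0.23 with 15 below 0. The part of length was not tested. TPM scaling brought the median of the 19 genes to -0.13 with 12 below 0, and leaving out WT replicate 2 brought it to -0.06 with 13 below 0. Over the 78 genes, log2 level and log2 fold change had a correlation of -0.27, and over 9740 other genes one of -0.04. It was -0.39 over the Mrpl genes and -0.12 over the Mrps genes. Of the 8 Mrps genes under 20 FPKM 4 were below 0, with a median of -0.04, and of the 16 Mrpl genes 6. Of the 13 Mrps genes of 20 to 100 FPKM 6 were below 0, with a median of 0.15, and of the 22 Mrpl genes 8, with a median of 0.11. At 100 FPKM or more, 7 of 8 Mrps genes and 8 of 11 Mrpl genes were below 0. The difference between the subunits was not tested, and these values describe genes measured in the same 4 libraries.

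**Figure D3:**
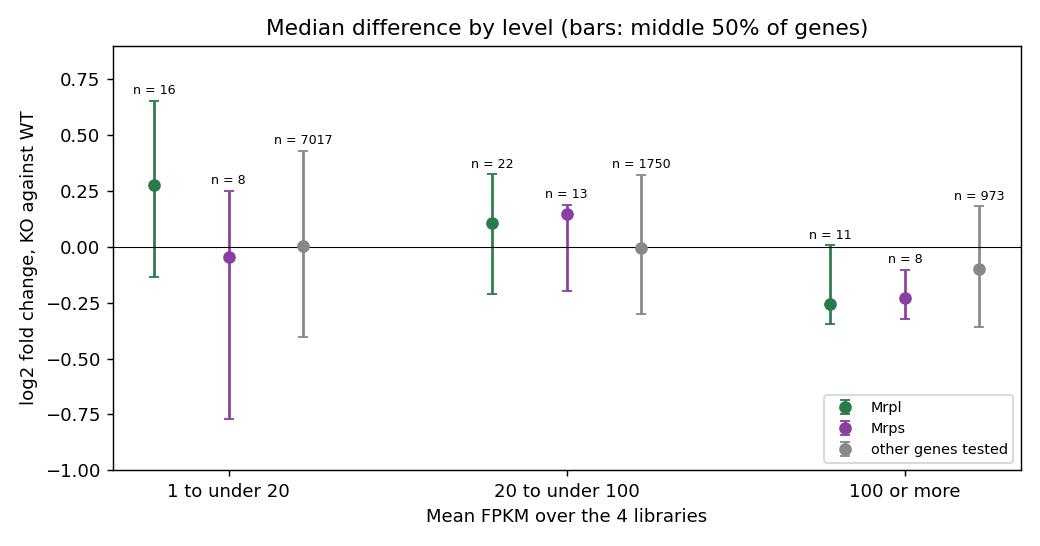
Median log2 fold change between KO and WT of Mrpl genes, Mrps genes and other genes tested in 3 classes of mean FPKM; bars span the middle 50% of genes and n is the number of genes. At 100 FPKM or more the medians are -0.25 for Mrpl, -0.23 for Mrps and -0.10 for other genes. The other genes include cytosolic ribosomal protein genes.

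Large and small subunit genes both had small median log2 fold changes. The 49 Mrpl genes had a median log2 fold change of 0.04, with 22 below 0, and the 29 Mrps genes one of -0.13, with 17 below 0. The median Mrps level, given above, was nevertheless higher in both KO libraries than in both WT libraries. For the median Mrpl level the groups overlapped. The distance between the subunits' median log2 fold changes was 0.17, and it turned to -0.08 without KO replicate 2. A related but different quantity is the distance between the subunits' median log2 levels in a library. It had an SD between replicates of 0.29. Separated groups were found in 20 Mrpl genes (9 higher and 11 lower in KO) and in 11 Mrps genes (4 higher and 7 lower). These are 40.8% and 37.9% of the genes, beside 39.1% of all genes tested. Summed over genes, Mrpl came to 4633 and 5211 FPKM in WT against 4037 and 4526 in KO, and Mrps to 2130.0 and 2641 against 2141 and 2072. The Mrpl sum, which holds Mrpl33, was thus lower in both KO libraries, and the groups overlapped in the Mrps sum. As a share of all FPKM, Mrpl held 0.470% and 0.487% in WT against 0.430% and 0.480% in KO, with overlapping groups. The Mrpl sum was 2.18 and 1.97 times the Mrps sum in WT and 1.89 and 2.18 times in KO. WT replicate 1 and KO replicate 2 had nearly the same ratio, and the groups overlapped.

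Summed, the 78 genes came to 6763 and 7853 FPKM in WT against 6177 and 6598 in KO, lower in both KO libraries. The total of all FPKM was also lower in both, at 939623 and 943240 against 986027 and 1069515 in WT. The share of the 78 genes in all FPKM was 0.686% and 0.734% in the WT libraries and 0.657% and 0.6995% in KO. The means were 0.710% ± 0.034 and 0.678% ± 0.030 (SD, n = 2 each), and KO replicate 2 lay above WT replicate 1. Leaving out Mrpl33 gave 0.544% and 0.584% in WT and 0.551% and 0.568% in KO, with both KO values between the WT values.

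**Figure D4:**
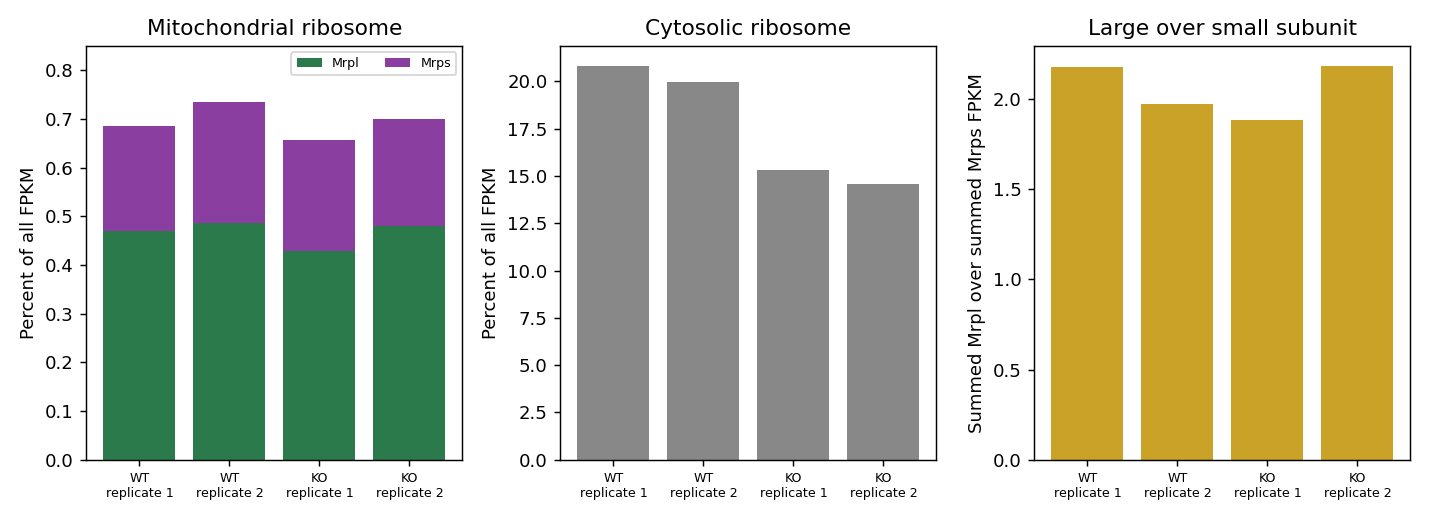
Share of all FPKM taken by the mitochondrial ribosomal protein genes (left, Mrpl and Mrps stacked) and by the cytosolic ones (middle), and the ratio of summed Mrpl to summed Mrps FPKM (right), with 1 bar for each library. The mitochondrial shares run from 0.657% to 0.734% with overlapping groups, and the cytosolic shares are 20.8% and 19.95% in WT and 15.3% and 14.6% in KO.

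The proteins of the cytosolic ribosome, which translates the messages of the nucleus, served as a comparison. Its genes had a much higher median WT mean than the members (1933 against 32.02 FPKM) and were shorter (median 689 against 1051.5 nt). All 78 of its genes had a log2 fold change below 0, with a median of -0.53, and 1 of them passed the test (limma, adjusted p = 0.0363); that these genes are lower in KO was known from the same data. Of all FPKM, their part was 20.8% and 19.95% in the WT libraries against 15.3% and 14.6% in KO. Their sum was 30.4 and 27.2 times the mitochondrial sum in WT and 23.3 and 20.8 times in KO, so this ratio was separated between the groups. With 2 libraries against 2 an exact permutation test cannot pass the threshold, and none is given. Cytosolic ribosomal protein genes have many pseudogenes, and reads may be shared with them.

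Some symbols do not give the place of the protein. Mrps18a and Mrps30 sit in the large subunit of the mammalian mitochondrial ribosome, and Mrps36 is now known as a subunit of the 2-oxoglutarate dehydrogenase complex. By place, 51 large-subunit genes had a median log2 fold change of 0.04 and 26 small-subunit genes one of -0.08. Mrps30 read 14.7 and 18.4 FPKM in WT against 25.2 and 3.31 in KO (log2 fold change -0.72, SE 0.73). Its KO libraries stood on either side of WT, and leaving out KO replicate 2 turned the log2 fold change to 0.58. Mrps36 read 81.2 and 97.8 FPKM in WT against 73.9 and 63.01 in KO (log2 fold change -0.38, SE 0.26), with KO lower in both libraries; it has annotated pseudogenes of the same name.

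The 3 Mrps18 genes encode related proteins at different positions of the ribosome. Mrps18c was the highest, at 357 ± 72.9 FPKM in WT and 297 ± 20.3 FPKM in KO. Mrps18b was the lowest, at 16.4 ± 13.3 FPKM in WT and 35.3 ± 5.60 FPKM in KO (SD, n = 2 each). Mrps18a stood between them with 63.6 and 78.97 FPKM in WT against 64.7 and 71.9 in KO, both KO values lying between the WT values. The log2 fold changes of the family pointed both ways, at -0.25 for Mrps18c, -0.05 for Mrps18a (0.07 under TPM scaling) and 1.30 for Mrps18b.

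In 3 members with well-described roles in the stalk, in decoding or in rescue, the groups overlapped. Mrpl12, which forms the stalk and has been found to bind the mitochondrial RNA polymerase, read 31.02 and 30.2 FPKM in WT against 37.5 and 22.97 in KO. Mrps12, of the decoding centre, read 56.7 and 64.01 FPKM in WT against 87.8 and 53.8 in KO. In both, the KO libraries lay on either side of the WT libraries. Mrpl58, a peptidyl-tRNA hydrolase that frees stalled ribosomes, read 23.9 and 50.3 FPKM in WT against 51.03 and 48.3 in KO, and only WT replicate 1 stood apart.

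By origin, 46 members were classed as homologues of bacterial ribosomal proteins and 32 as found in mitochondria only. Mrps18a and Mrps18b were put in the second class, although they are related to Mrps18c, which is in the first. Medians with them moved were not computed. The 46 genes had a median log2 fold change of -0.08 with 27 below 0, and the 32 genes one of 0.14 with 12 below 0. In the large subunit the medians were -0.05 (30 genes) and 0.23 (19 genes), and in the small subunit -0.16 (16 genes) and -0.05 (13 genes). The distance between the medians of -0.22 stayed negative with each library left out in turn, from -0.32 to -0.10. The distance between the median log2 levels of the classes, a different quantity, had an SD between replicates of 0.17. The classes also differ in level, with median WT means of 52.1 and 27.2 FPKM, and the difference between them was not tested.

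Other genes of mitochondrial translation were read from a list of 57 entries, of which 56 were in the table and 50 reached the mean of 1 FPKM. None of the 50 passed the test (limma, smallest adjusted p = 0.193). The median log2 fold change was -0.06 with 27 below 0, and separated groups were found in 6 genes higher and 13 lower in KO, together 38% of the list beside 39.1% of all genes. Most of the list was scarce, with a median WT mean of 5.04 FPKM, where the members had one of 32.02 FPKM.

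Of 5 ribosomal proteins with other names, Chchd1 of the small subunit was the highest, with 271 and 282 FPKM in WT against 189.8 and 225 in KO (log2 fold change -0.42, SE 0.21). It stood at the level of the abundant Mrps genes and was lower in both KO libraries. Gadd45gip1, near the exit of the large subunit's tunnel, read 18.98 and 24.8 FPKM in WT against 24.96 and 25.98 in KO, and Aurkaip1 of the small subunit read 63.4 and 87.5 FPKM in WT against 96.4 and 66.3 in KO. The groups were barely separated in the former and overlapped in the latter.

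Among 28 factors of ribosome assembly and RNA modification, Mtg2, a GTPase of large-subunit assembly, had the smallest p, with 2.10 and 0.96 FPKM in WT against 10.4 and 10.3 in KO (log2 fold change 2.21, SE 0.52; limma, adjusted p = 0.193). The KO libraries were almost equal and both WT libraries far lower. Nsun4, a methyltransferase of the small-subunit RNA, read 12.5 and 14.1 FPKM in WT against 5.89 and 6.94 in KO (log2 fold change -0.95, SE 0.41), in the opposite direction. Eral1, a GTPase that binds the small-subunit RNA, read 5.21 and 0.93 FPKM in WT against 7.38 and 8.39 in KO, and Ddx28, a helicase of large-subunit assembly, read 5.44 and 0.05 FPKM in WT against 12.2 and 4.83 in KO. In both, WT replicate 2 was the lowest library. The most abundant of these factors had small differences: Rbfa, which matures the small-subunit RNA (log2 fold change 0.04, SE 0.31), Mpv17l2 (log2 fold change -0.18, SE 0.32), Malsu1, which keeps the subunits from joining early (log2 fold change 0.19, SE 0.36), and Mterf3 (log2 fold change -0.27, SE 0.41).

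The class listed as translation factors also held proteins of other roles, and its highest gene, Slirp, is one of these. Slirp, the RNA-binding partner of Lrpprc, read 206 and 183 FPKM in WT against 125 and 169.6 in KO (log2 fold change -0.42, SE 0.24), lower in both KO libraries. Tufm, the elongation factor that brings aminoacyl-tRNA, read 10.8 and 24.95 FPKM in WT against 10.8 and 16.7 in KO, and Tsfm, its exchange factor, read 1.04 and 12.7 FPKM in WT against 6.21 and 12.5 in KO. Oxa1l, which inserts new chains into the inner membrane, read 11.5 and 8.47 FPKM in WT against 11.7 and 5.58 in KO. The groups overlapped in these last 3 genes. The initiation factor Mtif2 read 4.35 and 5.69 FPKM in WT against 5.99 and 7.41 in KO (log2 fold change 0.36, SE 0.47) and the release factor Mtrf1l read 1.10 and 2.45 FPKM in WT against 0.64 and 0.66 in KO (log2 fold change -0.71, SE 0.66), both with separated groups in opposite directions.

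Of the genes for mitochondrial transcription, Tfam, which packages mitochondrial DNA, read 7.41 and 5.95 FPKM in WT against 4.47 and 3.84 in KO (log2 fold change -0.57, SE 0.48). Tfb2m, which opens the promoter, read 7.01 and 4.75 FPKM in WT against 10.9 and 8.46 in KO (log2 fold change 0.65, SE 0.45). They were separated in opposite directions. Mterf1a (3.32 and 10.1 FPKM in WT against 1.98 and 1.20 in KO; log2 fold change -1.44, SE 0.62) and Mterf1b (5.44 and 8.79 FPKM in WT against 2.50 and 2.77 in KO; log2 fold change -1.13, SE 0.51), termination factors that are near copies of each other, were both lower in KO; reads may be shared between them.

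Members also shared features of position, read from GENCODE M21 on GRCm38.p6. In 18 of the 78 genes (23.1%) another protein-coding gene starts within 1000 nt on the opposite strand and runs the other way, which held for 11.2% of 9662 genes tested. One such pair links both ribosomes: Mrpl49 starts 59 nt from Fau, a gene of the cytosolic small subunit. Mrpl49 read 16.3 and 5.73 FPKM in WT against 18.3 and 13.2 in KO, and Fau read 3116 and 3472 FPKM in WT against 2348 and 2247 in KO. Fau was lower in both KO libraries, and the groups overlapped in Mrpl49. Mrpl46 and Mrps11, from the large and the small subunit, overlap each other on chromosome 7 in GENCODE, while their RefSeq spans lie side by side without overlap. Mrpl46 read 30.01 and 50.8 FPKM in WT against 40.6 and 72.96 in KO and Mrps11 read 40.5 and 28.4 FPKM in WT against 60.4 and 44.1 in KO, so that Mrps11 was the higher of them in replicate 1 and Mrpl46 in replicate 2 of each group. In all, 26 members overlap another protein-coding gene and 3 (Mrpl23, Mrpl48 and Mrps36) have pseudogenes of their name, with which reads may be shared.

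Promoter windows from 250 bases before to 50 after the gene's start were in the RefSeq table (GRCm38.p6) for 69 of the 78 genes. Motifs of 3 regulators of nuclear genes for mitochondria were searched as letters on both strands: for NRF1, GCGCA, any base, then GCGC; for ETS factors such as GABPA, CCGGAAG; and for YY1, AA, any base, ATGGCG, any base, then C. Matches of different motifs did not overlap in any member. ETS letters were in 36.2% of the members' windows and in 20.5% of those of 7985 genes tested. NRF1 letters were in 18.8% and 11.4%, and YY1 letters in 11.6% and 4.1%. At least 1 motif was in 24 of 43 Mrpl windows (55.81%) and in 14 of 26 Mrps windows (53.85%), beside 32.21% of those of all genes tested. Members with ETS letters had a median log2 fold change of -0.05 (25 genes) and those without one of 0.05 (44 genes). With NRF1 letters it was 0.17 (13 genes) and without 0.02 (56 genes). A match describes letters and is no evidence of binding.

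To show what these promoters look like, the 150 bases before the start follow for 4 members, 5′ to 3′ on the strand of the gene, with matched letters in capitals. Mrps21, an abundant gene, has an NRF1 match in chr3:95871515-95871664 (minus strand). Mrpl3, lower in both KO libraries, has an ETS match in chr9:105053118-105053267 (plus strand), and Mrps26, higher in both, has one in chr2:130563607-130563756 (plus strand). Mrpl33, the most abundant gene, has no match in chr5:31613801-31613950 (plus strand), though ETS letters occur once elsewhere in its window. Outside the printed stretch the window of Mrps26 also holds 2 NRF1 matches and that of Mrps21 an ETS match.
Mrps21: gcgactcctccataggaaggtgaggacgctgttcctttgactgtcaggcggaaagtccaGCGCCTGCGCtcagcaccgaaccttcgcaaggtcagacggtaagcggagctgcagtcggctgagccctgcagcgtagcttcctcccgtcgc
Mrpl3: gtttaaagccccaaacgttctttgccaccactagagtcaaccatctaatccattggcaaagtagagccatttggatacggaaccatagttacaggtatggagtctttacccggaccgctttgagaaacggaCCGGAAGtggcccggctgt
Mrps26: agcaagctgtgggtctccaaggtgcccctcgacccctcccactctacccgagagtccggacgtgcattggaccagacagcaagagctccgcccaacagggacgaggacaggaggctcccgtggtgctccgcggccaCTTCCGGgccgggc
Mrpl33: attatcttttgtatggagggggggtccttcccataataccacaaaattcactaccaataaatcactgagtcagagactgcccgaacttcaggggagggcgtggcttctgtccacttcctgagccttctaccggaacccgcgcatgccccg
Mrpl3 and Mrps26 both carry their ETS letters close to the start, and their log2 fold changes were -0.89 and 0.64.

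Transcript length enters FPKM as a divisor, and the members are short, with a median of 1051.5 nt where all genes tested had 1996 nt. Of the members of 20 FPKM or more, 4 of up to 600 nt had a median log2 fold change of -0.29, 28 of over 600 and up to 1000 nt one of -0.22 and 22 over 1000 nt one of 0.15. Other genes of that level had medians of -0.22, -0.07 and -0.01 in these classes. They include the 78 cytosolic ribosomal protein genes, with a median length of 689 nt and a median log2 fold change of -0.53. With the trend over length removed from each library, the median was 0.04 for Mrpl genes and -0.02 for Mrps genes, and 0 members passed the test (limma, smallest adjusted p = 0.521).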

How the data were processed

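mRNA libraries of sorted ILC2s were measured, 2 in each group, and groups came from sample titles. The deposited table holds FPKM that the authors computed; the submitters' processing notes list Bowtie2, RSEM, DESeq2 and GRCm38.p6, with no role; no version is named there. With 200 nt taken off each transcript length, steps between low FPKM values fitted whole fragments in part only (score 0.447 to 0.541, and up to 0.189 when shuffled). They put the depth near 18600000 to 21500000 fragments, and with 150 or 250 nt taken off it was 17100000 to 22800000. Counts were therefore not recovered, and no counting interval is given. Testing used log2(FPKM + 1), which understates the change of low genes, in limma 3.58.1 (R 4.3.3) with trended and robust moderation, for 9818 genes of mean 1 FPKM or more, with Benjamini-Hochberg adjusted p below 0.05 as a call. The p-values reflect the spread of these libraries alone, which may be technical. The code was tested on simulated data.

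The members, lists and classes were chosen with earlier results of these data known. Named members were the 8 highest and 4 lowest by mean, the 6 with the largest difference each way among separated genes of mean 5 FPKM or more, and 8 taken in any case. From the translation list, up to 4 of smallest p and 4 of highest mean were named for each class. Mrpl46, Mrps11, Mrpl49 and Fau were named for their position after their values were seen. Gene identifiers were matched to RefSeq (19034 of 19088). Alternatives were other pseudocounts, filters, scalings, a length correction, a replicate block, other moderation and each library left out.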

Additional observations from a re-analysis of the deposited data

How the results depend on the processing

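No member that entered the test passed it (limma) under any of 14 alternatives, while calls among all genes were 21 as reported, 20 with a filter of 5 FPKM in 2 libraries, 23 with TPM scaling, 24 with scaling without the 20 highest genes, 1 each with median-ratio scaling and the length correction, and 0 with the pseudocount of 0.1, no filter, quantile normalization, limma without trend and robust moderation and each library left out. The replicate numbers share no source in the labels. Differences between replicates 1 and 2 of WT and KO had a correlation of 0.025 over 9818 genes. With the replicate block 0 members and 0 of all genes were called, with a smallest adjusted p of 0.362 for a member (limma).

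TPM scaling gave a median log2 fold change of 0.136 for the members, -0.128 for those of 100 FPKM or more (an alternative chosen after seeing the data) and -0.409 for the cytosolic ribosomal protein genes. The last was -0.433 with scaling without the 20 highest genes and -0.327 with quantile normalization. The log2 ratio of the summed level (-0.066 as a share of all FPKM) was -0.194 with FPKM as deposited, -0.163 with median-ratio scaling and -0.159 with quantile normalization. The causes were not tested. With 1 library left out, the lone library being taken to vary like the other group, medians ran from -0.098 to 0.097 for the members, -0.285 to -0.055 for those of 100 FPKM or more and -0.327 to 0.148 for the translation list.

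Of 50 named genes, 17 changed sign in 30 of 694 gene and setting pairs, all without passing the test. TPM scaling gave 0.0862 for Mrpl32, 0.0693 for Mrps18a and 0.0627 for Mrpl12, and scaling without the 20 highest genes gave 0.0622, 0.0455 and 0.0396. The length correction gave 0.0159 for Mrps21 and -0.0415 for Rbfa. With 1 library left out, log2 fold changes ran from -0.0286 to 0.176 for Mrpl54, -0.279 to 0.202 for Mrpl32, -0.671 to 0.873 for Mrps31, -0.208 to 0.0996 for Mrps18a, -2.02 to 0.583 for Mrps30, -0.0184 to 1.02 for Mrpl58, -0.4 to 0.283 for Mrpl12, -0.161 to 0.537 for Mrps12. In the same way they ran from -0.166 to 0.368 for Aurkaip1, -0.47 to 2.27 for Tsfm, -0.726 to 0.228 for Oxa1l, -0.842 to 0.296 for Tufm, -0.761 to 0.22 for Mterf3, -0.213 to 0.596 for Malsu1, -0.446 to 0.0881 for Mpv17l2 and -0.364 to 0.444 for Rbfa.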
